A study of Homo sapiens with 6 samples.

Results

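The genes described here encode the factors that start and carry out translation of mRNA into protein, and some proteins that bind or modify them. They were taken as every probe set, a group of short probes for one transcript region, whose array annotation gives a single symbol that starts with EIF (initiation factors) or EEF (elongation factors), leaving out the EIF2AK kinases. This gave 97 of the 22277 probe sets on the array, for 47 of 11963 genes. Counted by symbol, 83 probe sets of 40 genes were initiation factors and 14 probe sets of 7 genes were elongation factors. The 7 include EEF1AKMT2, EEF1AKMT3 and EEF2KMT, the genes of enzymes that modify elongation factors. A further 12 probe sets, annotated with several symbols that include an EIF or EEF symbol, were not used, so the members do not cover every known factor.

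The series measured total RNA of A-498 cells, an established human line from a renal cell carcinoma, on Affymetrix arrays. The zebularine group held 3 cultures kept for 120 h with 1000 µM zebularine, a cytidine analogue known as an inhibitor of DNA methylation. The untreated group held 3 cultures of the same line grown for 120 h with 0 µM zebularine. Both groups were grown in medium with 10% serum and split on days 3 and 5, each culture gave 1 array, and an array of each group shares a replicate number and an experiment name in the labels. All values come from 1 cell line.

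Translation starts when the small ribosomal subunit, with initiator tRNA brought by eIF2 and with eIF3, eIF1 and eIF1A bound, is loaded at the mRNA cap by eIF4F and scans for the start codon. After the large subunit has joined, eEF1A delivers each aminoacyl-tRNA and eEF2 moves the ribosome along by one codon. Cells adjust this machinery through eIF2 and its exchange factor eIF2B, through the eIF4E binding proteins, and through the mTOR pathway. That pathway controls the translation of many mRNAs for the machinery itself by way of a run of pyrimidines at their first bases, the 5′ terminal oligopyrimidine (TOP) sequence.

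Transcript starts are shown first because such a run is what several of these genes share and the choice of members did not use it. RefSeq starts on GRCh38.p14 were found for 36 of the 47 genes, 48 starts in all. A run was counted where the first transcribed base is C and at least the next 4 bases, read on the transcript's strand alone, are each C or T. It was present at 9 of the 48 starts (18.8%), against 4.07% of the 35116 starts of the whole table. The lines below give 10 bases before and 20 bases from the start, 5′ to 3′, with the run in capitals. The first 5 genes were lower on the zebularine array in all 3 replicates, the next 3 were higher in all 3, and EIF2S3, the last start with the run, had both signs. The final 3 lines are examples of starts without the run, from EIF4ENIF1, lower in all 3 replicates, and EIF2S1 and EIF4E, higher in all 3.
EEF2 (chr19:3985444-3985473, minus strand): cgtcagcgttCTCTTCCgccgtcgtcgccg
EEF1A1 (chr6:73521013-73521042, minus strand): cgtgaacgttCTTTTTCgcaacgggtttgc
EIF4B (chr12:53006446-53006475, plus strand): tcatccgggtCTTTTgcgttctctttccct
EIF3F (chr11:7987327-7987356, plus strand): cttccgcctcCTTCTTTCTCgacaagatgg
EIF2D (chr1:206612446-206612475, minus strand): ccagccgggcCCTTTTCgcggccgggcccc
EIF3D (chr22:36529147-36529176, minus strand): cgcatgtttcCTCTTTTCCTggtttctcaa
EIF3K (chr19:38619178-38619207, plus strand): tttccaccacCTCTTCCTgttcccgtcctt
EIF3M (chr11:32583821-32583850, plus strand): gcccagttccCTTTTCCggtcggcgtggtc
EIF2S3 (chrX:24054946-24054975, plus strand): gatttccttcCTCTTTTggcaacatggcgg
EIF4ENIF1 (chr22:31489823-31489852, minus strand): gccgggctgcagttacggcggctgaagaga
EIF2S1 (chr14:67360318-67360347, plus strand): gaggttccgcatgcgcggtggagtgagcga
EIF4E (chr4:98929114-98929143, minus strand): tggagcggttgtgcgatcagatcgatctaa

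The values are MAS5 signals, a linear intensity per probe set and array with no unit of its own, and differences are given as zebularine minus untreated on the log2(signal + 16.34) scale, which understates the change of dim genes. Testing was limited to probe sets with a signal of 78.6 or more on at least 3 of the 6 arrays. This left 89 of the 97 member probe sets and 44 of the 47 genes, each gene represented by its tested probe set with the highest mean signal. The other 3 genes, EIF1AY, EEF1AKMT2 and EEF2KMT, were too dim to be tested. The highest signals of the last pair were 64.5 for EEF1AKMT2 and 152.4 for EEF2KMT. Zebularine and untreated arrays were compared with limma. Its p-values were adjusted by the Benjamini-Hochberg method over the 13545 probe sets that passed the filter, and a call is an adjusted p under 0.05. The labels call the replicates biological and give both arrays of a replicate number the same experiment name. The labels say no more of the origin of the cultures, so the p-values reflect only how much these cultures of 1 line varied.

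Array medians ran from 126.4 to 134.4 in the zebularine group and from 117.9 to 140.7 in the untreated group. The highest signal in replicate 3 was 28720.5 for zebularine and 31176.4 for untreated, while it lay between 66289.9 and 71174.1 on the other 4 arrays. The ratio of 3′ to 5′ GAPDH signal, a sign of RNA integrity, was 1.34, 1.16 and 1.01 on the zebularine arrays and 1.52, 1.19 and 1.07 on the untreated arrays, lower with zebularine in each replicate. The same ratio for ACTB was 5.25, 2.06 and 1.49 on the zebularine arrays and 3.10, 2.38 and 1.71 on the untreated arrays, higher with zebularine in replicate 1 and lower in the others. Zebularine replicate 1 thus had the highest ACTB ratio of the 6 arrays, and EEF2 and EEF1A2 differed most in that replicate, as described below. The part of these ratios in the results was not tested. All 6 kidney and renal carcinoma markers on the array passed the filter, PAX8 and VIM among them, and 0 of 8 markers of blood, endothelium and liver did. CDH6, a cadherin of kidney tubules, read 102.8 to 209.1 in zebularine and 584.4 to 2209 in untreated cultures.

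Limma without a replicate term, the main fit, called no elongation factor gene. With all arrays and the main settings otherwise, EEF2 was the 1 called once the replicate number was added to the fit. By brightest probe set, all 5 tested genes had a negative mean difference, as did 50.7% of all 7938 tested genes. Their median was -0.36, against -0.01 over all tested genes. The class median was -0.44, -0.28 and -0.46 in replicates 1, 2 and 3, and 4 of the 5 genes were lower in every replicate. The other was EEF1AKMT3, the gene of a modifying enzyme, which stood at 0.03 in replicate 2. No elongation factor gene was called by limma without a replicate term, where 0.642% of all genes were called. At an unadjusted p under 0.05 there were 2 of the 5, EEF2 and EEF1A2, both lower, against 6.84% of all tested genes lower and 13.1% in either direction. With the replicate number as a block in the fit, EEF2 was the 1 member called, against 2.28% of all tested genes called lower and 2.17% called higher in that fit. Both EEF2 probe sets were called there, against 2.32% of all tested probe sets called lower. An unadjusted p under 0.05 in the blocked fit was reached by 4 of the 5 genes, all lower. Of all tested genes, 11.3% reached it lower and 21.3% in either direction.

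**Figure D1:**
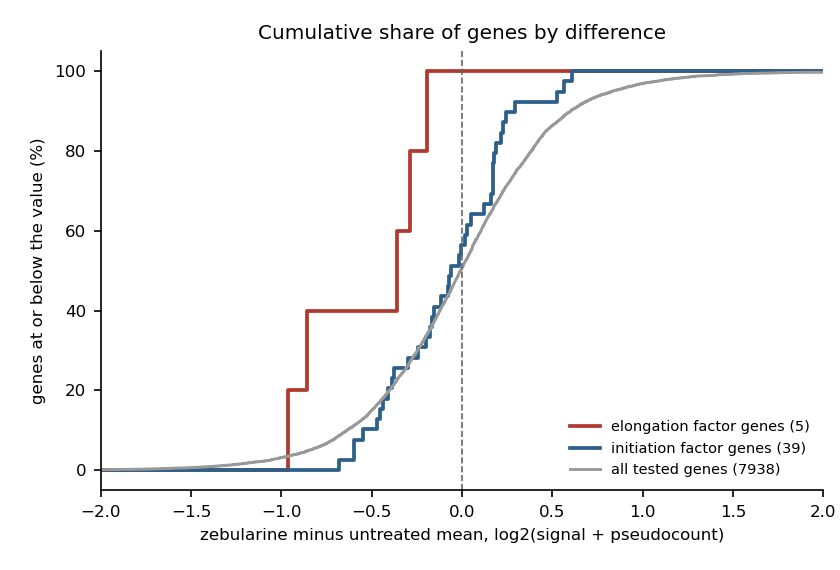
Cumulative percentage of genes (vertical axis) at or below each mean difference, zebularine minus untreated, on the log2(signal + pseudocount) scale (horizontal axis), for 5 elongation factor genes, 39 initiation factor genes and all 7938 tested genes. The elongation factor line reaches 100% left of 0, and the initiation factor line crosses the middle close to the line of all genes, with medians of -0.06 and -0.01.

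EEF2 is the GTPase that translocates the ribosome along the mRNA. Its brighter probe set read 10439.5, 12096 and 10021 on the zebularine arrays of replicates 1, 2 and 3, against 29209.5, 15461 and 16776 on the untreated arrays. Its other probe set read 8181, 9579 and 7175 with zebularine, against 20466, 13749.5 and 15425 untreated. Every zebularine array lay below every untreated array on both probe sets, and untreated replicate 1 was the highest of all.

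The difference of EEF2 was -0.86 ± 0.28 on the log2 scale (standard error; 95% interval -1.46 to -0.26), or -1.48, -0.35 and -0.74 in replicates 1, 2 and 3. It did not pass limma without the block (adjusted p = 0.226) and passed with it (limma with replicate block, standard error 0.18, adjusted p = 0.0219). The other probe set differed by -0.98 ± 0.25 (limma, adjusted p = 0.111 without and 0.00699 with the block). Without untreated replicate 1 the difference of EEF2 was -0.57 (limma, adjusted p = 0.567). The blocked call ended without replicate 1 (limma, -0.55, adjusted p = 0.11), without the filter on dim probe sets (limma, adjusted p = 0.0602) and without the mean-variance trend (limma, adjusted p = 0.251). In bulk RNA, a lower level in every cell and fewer cells that express the gene cannot be told apart.

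The 2 forms of eEF1A, the GTPase that brings aminoacyl-tRNA to the ribosome, were both lower with zebularine in every replicate. EEF1A2, the form known from muscle and neurons, read 523, 1087 and 1204 in zebularine replicates 1, 2 and 3, against 1777.5, 1503 and 1954 untreated. The groups did not overlap, and zebularine replicate 1 was lowest. Its difference of -0.96 ± 0.31 (95% interval -1.64 to -0.28) was the most negative among the brightest probe sets of the members but did not pass (limma, adjusted p = 0.23, and 0.0564 with the block). Without replicate 1 it was -0.58 with the block (limma, adjusted p = 0.35), and without zebularine replicate 1 it was -0.59 (limma, adjusted p = 0.373). With the block it passed where arrays were centred, without replicate 2 and without replicate 3 (limma, lowest adjusted p = 0.0135). Of 4 muscle and neuron markers on the array, 3 were too dim to test and SNAP25 read 71.7 to 254.4 with zebularine and 82.5 to 109.9 untreated.

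EEF1A1, the common form of eEF1A, read 31706, 41415 and 22888 in zebularine replicates 1, 2 and 3, against 39630.3, 50381 and 27323 untreated. The groups overlapped because the replicates differed in level, with both replicate 3 arrays lowest, as were the maxima of those arrays. The replicate differences were close to each other at -0.32, -0.28 and -0.26, and the mean of -0.29 ± 0.30 did not pass (limma, adjusted p = 0.742, and 0.114 with the block). With the block the standard error of this mean was 0.095. All 4 EEF1A1 probe sets were lower in every replicate, at mean differences from -0.37 to -0.28. They are of a type that can bind related transcripts, so signal from paralogs and pseudogenes cannot be told apart from that of EEF1A1.

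EEF1D, a subunit of the eEF1B complex that reloads eEF1A with GTP, read 4781, 7615.5 and 5180.2 in zebularine replicates, against 6489.8, 9056 and 6795 untreated. It was lower in each replicate, by -0.44, -0.25 and -0.39, and did not pass (mean -0.36 ± 0.26; limma, adjusted p = 0.613, and 0.184 with the block). A second bright probe set differed by -0.34, while 2 dim probe sets of EEF1D, with means of 76.3 to 160 in either group, stood at 0.88 ± 0.57 and -0.67 ± 0.71. EEF1AKMT3, a methyltransferase of eEF1A lysines, read 263.7, 199.2 and 145.8 with zebularine, against 296.1, 194.6 and 206.1 untreated, with overlapping groups (difference -0.19 ± 0.33; limma, adjusted p = 0.853).

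**Figure D2:**
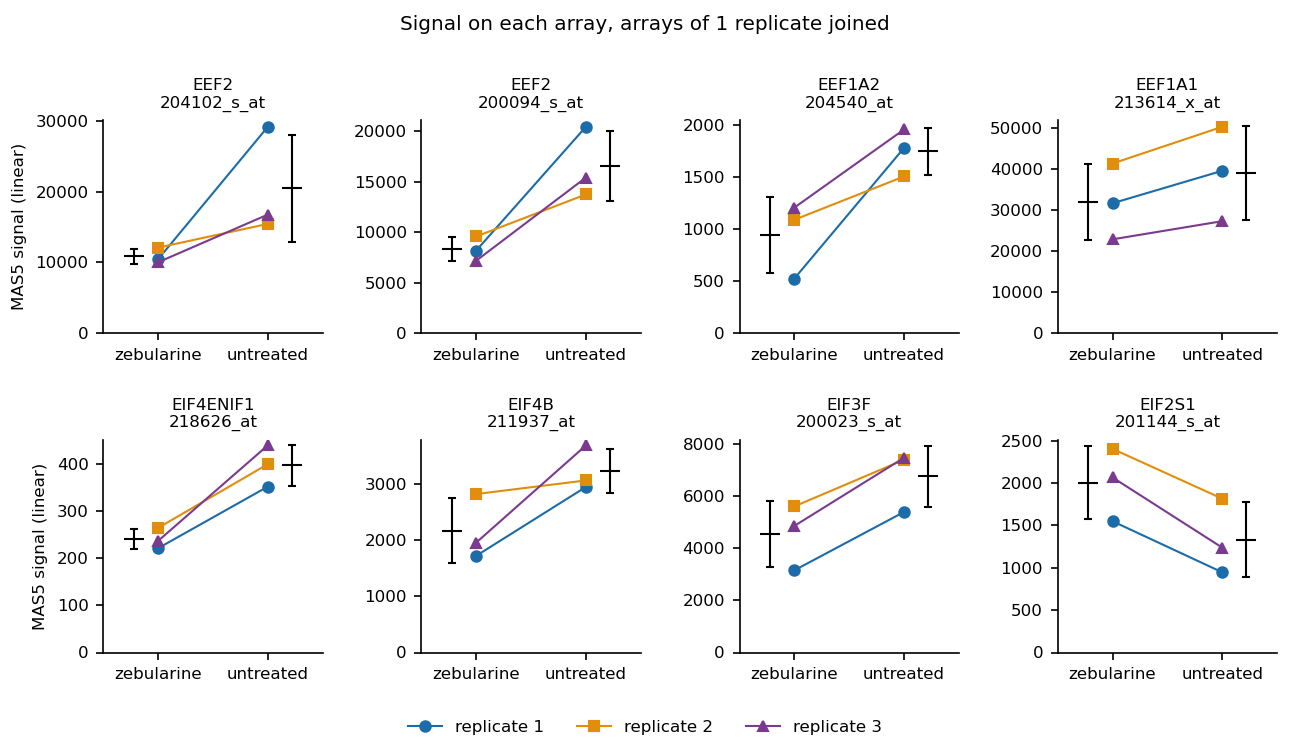
MAS5 signal (vertical axes, linear and starting at 0) on each zebularine array (left) and untreated array (right) for 8 probe sets, with lines joining the arrays of a replicate and black bars giving the mean ± SD of 3 arrays. The lines of EEF2, EEF1A2, EEF1A1, EIF4ENIF1, EIF4B and EIF3F lie lower at zebularine in every replicate, and those of EIF2S1 lie higher.

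Initiation factors as a class had a median near that of all genes. In all 3 replicates 13 of the 39 tested genes were lower and 7 higher, against 22% and 21.5% of all tested genes. Of 39 tested genes 22 lay below 0 and 17 above it. Their median difference was -0.06, or 0.02 over all 77 tested probe sets of the class, and by gene it was -0.17, 0.05 and -0.16 in replicates 1, 2 and 3. None was called by limma with or without the block. Of all tested genes, 0.642% were called without it, and 2.28% were called lower and 2.17% higher with it. At an unadjusted p under 0.05, limma without the block gave 3 lower and 0 higher, against 6.84% and 6.25% of all tested genes. With the block it gave 8 lower and 2 higher, against 11.3% of all tested genes lower and 21.3% in either direction. By brightest probe set, mean differences ran from -0.68 for EIF4ENIF1 to 0.61 for EIF2S1.

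Across both classes, 17 of the 44 genes (38.6%) were lower in all 3 replicates, against 22% of all tested genes, and 7 (15.9%) were higher in all 3, against 21.5%. The zebularine arrays lay entirely below the untreated arrays for 8 members (18.2%), against 8.83% of all tested genes. Of the 8 members, 2 were elongation factors, EEF2 and EEF1A2, and 6 were initiation factors, EIF4ENIF1, EIF4B, EIF6, EIF3B, EIF4G1 and EIF2D. The zebularine arrays lay entirely above for 1 member, EIF1AX, against 9.32% of all tested genes.

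**Figure D3:**
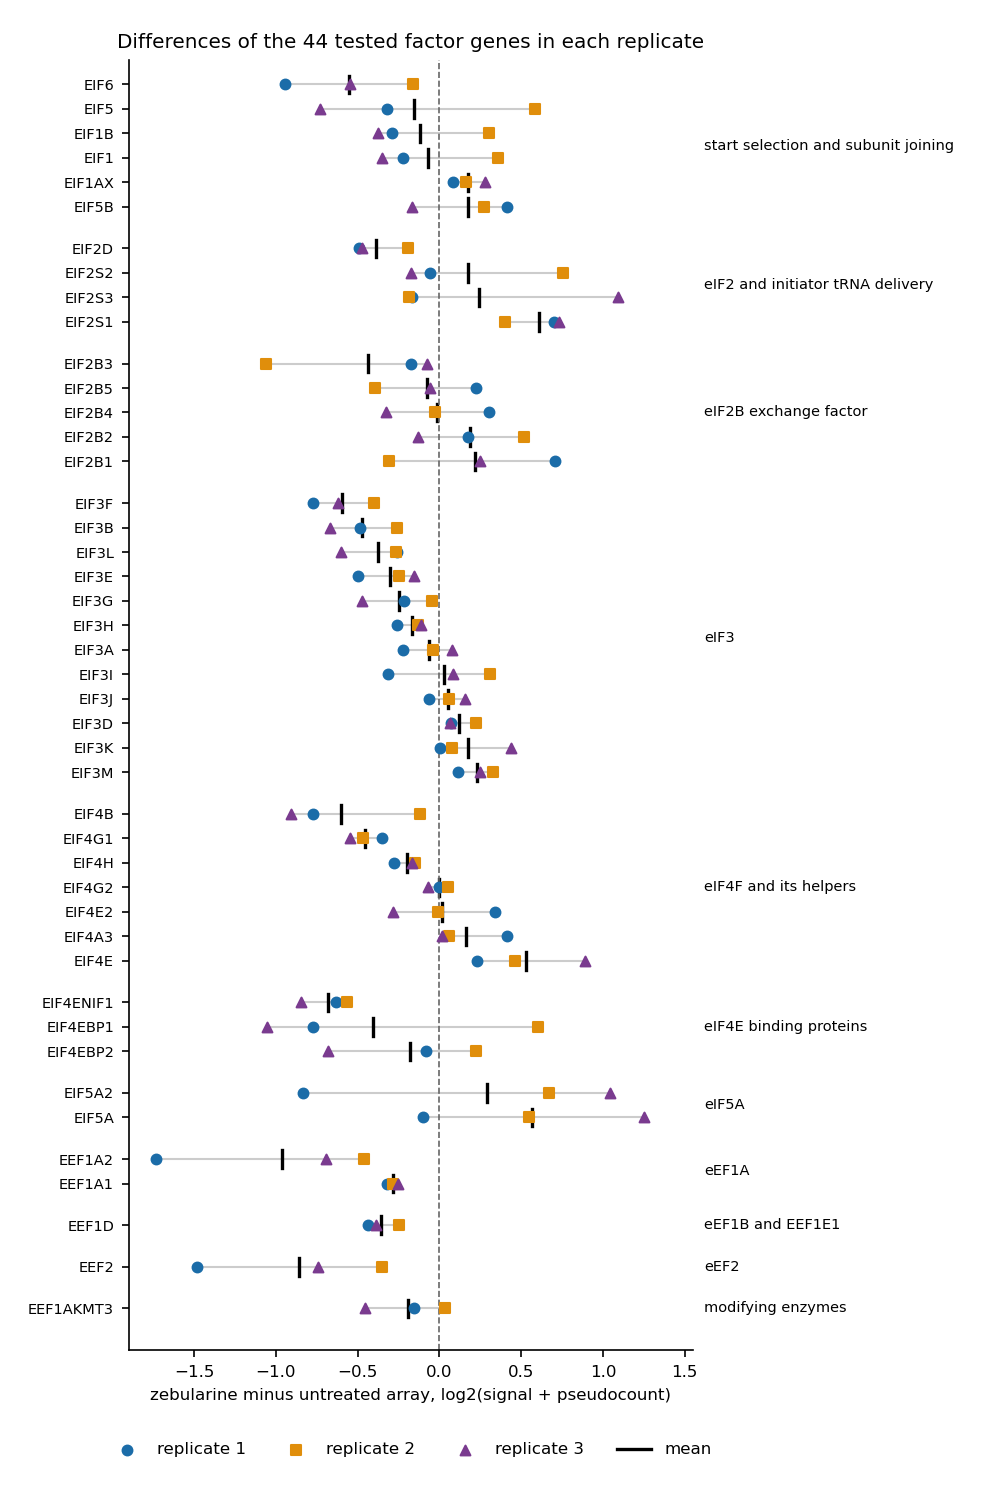
Difference between the zebularine and the untreated array of each replicate on the log2(signal + pseudocount) scale (horizontal axis) for the 44 tested genes, ordered by role (vertical axis), with a black tick at the mean. The points of EEF2, EEF1A2, EEF1A1 and EEF1D lie left of 0 in all 3 replicates, while EIF1, EIF5 and EIF4EBP1 lie right of 0 in replicate 2 alone.

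The 7 tested genes grouped as the cap-binding complex eIF4F and its helpers had a median difference of -0.01, and none was called. That median is the value of EIF4G2, described below. No EIF4A gene but EIF4A3 was among the members, so the median does not describe eIF4F as a whole. By brightest probe set, 3 of the 7 genes were lower and 2 higher in every replicate, and differences between these genes were not tested. EIF4B, which stimulates the eIF4A helicase, read 1726.5, 2829 and 1962 with zebularine, against 2956, 3072.5 and 3698 untreated. The groups did not overlap, although zebularine replicate 2 came close to the lowest untreated arrays. Its difference was -0.60 ± 0.26 (limma, adjusted p = 0.366, and 0.116 with the block). A second probe set gave -0.63 ± 0.25, and a dim one 0.16 ± 0.38.

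EIF4G1, the scaffold that joins cap-binding protein and helicase, read 2265, 1694 and 1698 with zebularine, against 2896, 2351 and 2489.6 untreated, without overlap. It differed by -0.46 ± 0.24 (limma, adjusted p = 0.466) and its second probe set by -0.56 ± 0.29. EIF4E, the cap-binding protein itself, read 585.8, 1436 and 1294 with zebularine, against 497.2, 1038 and 691.6 untreated. It was higher in each replicate, with overlapping groups (difference 0.53 ± 0.36; limma, adjusted p = 0.588, and 0.205 with the block). Of its other probe sets one stood at 0.48 and one at -0.26, so they do not settle a direction. EIF4H, another helicase helper, was lower in every replicate at -0.20, and EIF4A3, a helicase of the exon junction complex, was higher in every replicate at 0.16.

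EIF4G2, a scaffold without the cap-binding protein's docking site, gave nearly the same values in both groups. It read 9748, 10398 and 9305 with zebularine, against 9762, 10009 and 9757 untreated. Its difference of -0.01 ± 0.22 had a 95% interval of -0.49 to 0.48 without the block (limma, adjusted p = 0.996). That fit cannot tell a change within that range from none. With the block the standard error was 0.13 (limma, adjusted p = 0.989).

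Among proteins that bind eIF4E, EIF4ENIF1, the transporter that takes eIF4E into the nucleus, had the most negative difference among the brightest probe sets of the initiation factors. It read 221.8, 265 and 237.3 with zebularine, against 352.9, 400.7 and 440.7 untreated. The groups did not overlap, and the replicates were alike at -0.63, -0.57 and -0.85. The mean of -0.68 ± 0.27 (95% interval -1.26 to -0.10) did not pass (limma, adjusted p = 0.313, and 0.138 with the block).

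EIF4EBP1, the mTOR-regulated inhibitor of eIF4E, read 966.1, 957.6 and 1243 with zebularine, against 1665, 624.2 and 2599 untreated. The zebularine values were close together, whereas untreated replicate 2 was lowest and untreated replicate 3 highest of the 6. The difference was therefore -0.78 and -1.05 in replicates 1 and 3 and 0.60 in replicate 2, with a mean of -0.41 ± 0.41 (limma, adjusted p = 0.726). Its relative EIF4EBP2 had the same signs, at -0.08, 0.22 and -0.68.

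The genes of eIF2, the carrier of initiator tRNA, did not move as one. EIF2S1 encodes the alpha subunit, whose phosphorylation curbs initiation under stress. It read 1549, 2402.5 and 2065 with zebularine, against 946.1, 1815 and 1237 untreated. It was higher in each replicate by 0.70, 0.40 and 0.73, and its mean of 0.61 ± 0.29, the most positive among the brightest probe sets of the members, did not pass (limma, adjusted p = 0.411, and 0.103 with the block). Its other 2 probe sets gave 0.21 and 0.17.

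EIF2S2, the beta subunit, read 10622, 13499 and 7517 with zebularine, against 11045, 7992 and 8473 untreated, higher in replicate 2 alone (difference 0.18 ± 0.27; limma, adjusted p = 0.835). Its dim probe set pointed the other way, with 94.5, 140.4 and 61.3 in zebularine replicates against 282.6, 168.2 and 173.4 untreated, without overlap and at -0.99 ± 0.40 (limma, adjusted p = 0.339). EIF2S3, the gamma subunit, stood at 0.24, set by replicate 3 at 1.09. EIF2D, which can deliver tRNA without eIF2, was lower in each replicate without overlap, at 1053, 1025 and 1075 with zebularine against 1488, 1174 and 1497 untreated (-0.39 ± 0.24; limma, adjusted p = 0.54).

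The 5 genes of eIF2B, which recharges eIF2 with GTP, had a median of -0.02 and ranged from -0.44 to 0.21. EIF2B1, the alpha subunit, read 1039, 937.8 and 820.3 with zebularine, against 630.7, 1166 and 689 untreated, so replicates disagreed in sign (0.21 ± 0.28; limma, adjusted p = 0.803). EIF2B3, the gamma subunit, was lower in all 3 replicates, by -1.06 in replicate 2 and by at most 0.17 in size in the others.

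Subunits of eIF3, the scaffold that holds the small subunit and the mRNA, stood on both sides of 0. Of 12 tested genes, 6 were lower and 3 higher in all 3 replicates, and the median was -0.11. EIF3F read 3159.6, 5616 and 4866 with zebularine, against 5403, 7411 and 7487 untreated, lower by 0.77, 0.40 and 0.62 in replicates 1, 2 and 3. It had the smallest p of the group (-0.60 ± 0.27; limma, adjusted p = 0.394, and 0.0542 with the block).

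EIF3B read 2327, 2529 and 2735 with zebularine, against 3264, 3034 and 4365 untreated. Its groups did not overlap, and its 3 probe sets stood at -0.47, -0.34 and -0.37. EIF3E, the brightest of the tested eIF3 genes, read 8246, 11417 and 9259 with zebularine, against 11641, 13549.6 and 10326 untreated. It was lower in each replicate with overlapping groups (-0.30 ± 0.24; limma, adjusted p = 0.652, and 0.229 with the block). EIF3L, EIF3G and EIF3H were also lower in every replicate, at means of -0.38, -0.25 and -0.17, while EIF3M, EIF3K and EIF3D were higher in every replicate, at 0.23, 0.17 and 0.12. The range of the 12 genes ran from -0.60 to 0.23, with EIF3A, EIF3I and EIF3J between -0.06 and 0.05.

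Factors that select the start codon and join the subunits did not move together. EIF1, which guards start codon choice, read 28915, 35544 and 18388 with zebularine, against 33734, 27678.5 and 23449 untreated, with a difference of -0.07 ± 0.29 (limma, adjusted p = 0.946). It was lower in replicates 1 and 3 and higher in replicate 2, as were its relative EIF1B and EIF5, the GTPase activator of eIF2. Sign patterns of this kind, higher in replicate 2 alone, occurred in 8 of the 44 members (18.2%), against 12.8% of all tested genes. The 8 were EIF1, EIF1B, EIF5, EIF2S2, EIF4G2, EIF4EBP1, EIF4EBP2 and EEF1AKMT3.

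EIF6, which keeps the ribosomal subunits apart, read 1859, 3292 and 2494 with zebularine, against 3594, 3683.5 and 3647 untreated. The untreated arrays were alike and the zebularine arrays all lower, most in replicate 1 (-0.55 ± 0.26; limma, adjusted p = 0.403, and 0.132 with the block). EIF1AX, the eIF1A gene on the X chromosome, read 3516, 3878 and 4111 with zebularine, against 3317, 3469 and 3389 untreated, higher without overlap by 0.17 ± 0.22 (limma, adjusted p = 0.798). Of its other 3 probe sets 1 was positive and 2 were negative. EIF5B, the GTPase of subunit joining, stood at 0.17 at its brightest probe set, and its other 4 tested probe sets ran from 0.07 to 0.56.

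EIF5A, a hypusine-bearing factor named for initiation and known to aid elongation, read 277.3, 288 and 682.3 with zebularine, against 298.2, 191.7 and 277.1 untreated. Zebularine replicate 3 stood above all other arrays, and the difference of 0.57 ± 0.36 did not pass (limma, adjusted p = 0.555). Its other 2 probe sets stood at 0.45 and -0.06. EIF5A2, its paralog, had signals of 50.9 to 176.9 and replicate differences of -0.83, 0.67 and 1.04.

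Probe sets of 1 gene gave a measure of how far single readings can be trusted. Of 20 genes with more than 1 tested probe set, 11 had all of them on the same side of 0. For EEF2, EEF1A1, EIF4G1 and EIF3B all tested probe sets were negative, and for EIF2S1, EIF5B, EIF3M and EIF4E2 all were positive. EEF1D and EIF2S2 were the genes whose probe sets lay more than 1 log2 unit apart.

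**Figure D4:**
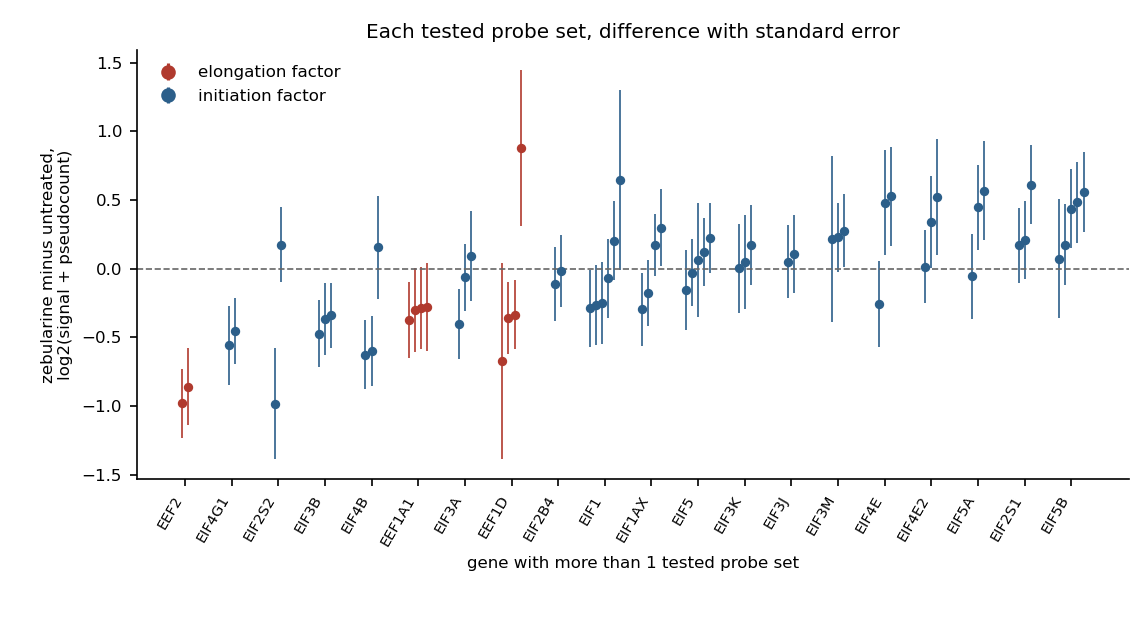
Mean difference, zebularine minus untreated, with its standard error on the log2(signal + pseudocount) scale (vertical axis) for each tested probe set of the 20 genes with more than 1 (horizontal axis, ordered by the gene's mean). The probe sets of EEF2 lie at -0.98 and -0.86, while those of EEF1D and EIF2S2 fall on both sides of 0.

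Set against these values, the pyrimidine runs printed above did not sort the tested genes that have a RefSeq start by direction. Of the 9 tested genes with the run, EEF2, EEF1A1, EIF4B, EIF3F and EIF2D were lower in all 3 replicates, EIF3D, EIF3K and EIF3M were higher in all 3, and EIF2S3 had both signs. Their median difference was -0.29, against -0.01 for the 25 tested genes that have a RefSeq start without the run, of which 6 were lower and 4 higher in all 3 replicates. The difference between these medians was not tested. Tested genes without a start, left out here, were EEF1A2, EEF1D, EEF1AKMT3, EIF2S2, EIF3A, EIF3E, EIF3G, EIF3H, EIF3L and EIF4EBP1. Of these, EEF1A2, EEF1D, EIF3E, EIF3G, EIF3H and EIF3L were lower in all 3 replicates, and the others had both signs. The windows of 300 bases around the starts held a median of 28 CG dinucleotides, the site of DNA methylation, against 14 over all starts in the table. Among the lower genes with the run, the count was 41 for EEF2, 35 for EIF4B, 27 for EIF2D, 24 for EEF1A1 and 15 for EIF3F. It was 34, 32 and 28 for EIF3D, EIF3M and EIF3K, which were higher, and 17 for EIF2S3. DNA methylation was not measured, and its part in these differences was not tested.

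Other genes that serve translation were counted from a list. Of 47 genes listed for mTOR signalling, eIF2 kinases, poly(A) binding, termination, factor modification and mitochondrial translation, 34 were tested. Limma called 0 of them with or without the block, against 0.642% of all tested genes without it. With the block, 2.28% of all tested genes were called lower and 2.17% higher. At an unadjusted p under 0.05 there were 2 without the block and 10 with it, against 13.1% and 21.3% of all tested genes. Their median difference was -0.17, against -0.01 over all tested genes. By replicate it was -0.29, 0.02 and 0.07 in replicates 1, 2 and 3. Of the 34 genes, 7 were lower and 8 higher in all 3 replicates, against 22% and 21.5% of all tested genes. Chosen after their values were seen, TSC2, which restrains mTOR by acting on the GTPase RHEB, stood at -1.17 ± 0.39 (limma, adjusted p = 0.241 without the block). Its differences were -1.99, -0.13 and -1.38 in replicates 1, 2 and 3. MLST8, a subunit of the mTOR complexes, stood at -0.90 ± 0.27 (limma, adjusted p = 0.193 without the block). With the block these p-values were 0.0668 for TSC2 and 0.059 for MLST8. RHEB stood at 0.40, PABPC1, the poly(A) binding protein that eIF4G contacts, at -0.47, and RPS6, a ribosomal protein phosphorylated downstream of mTOR, at -0.30. RHEB, PABPC1 and RPS6 did not pass (limma, adjusted p = 0.53, 0.549 and 0.709 without the block, and 0.128, 0.0964 and 0.127 with it).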

How the data were processed

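The authors deposited a linear intensity per probe set and array, made with MAS5 per the submitters' processing notes, which give no version or scaling target. Leaving out the lowest and highest 2% of values, the array means were nearly equal, at 499.4 to 499.6 for zebularine and 499.1 to 499.8 for untreated. Such scaling hides a change shared by all transcripts. From there, 62 control probe sets were left out, and log2(signal + 16.34) was taken. This pseudocount equals an overall median signal divided by 8. Probe sets under 78.6, the 40th percentile, on more than 3 of 6 arrays were left out. The fit was limma 3.58.1 in R 4.3.3 (moderated two-sided test, trend option of eBayes), checked on simulated arrays. Python 3.11.15 and matplotlib 3.10.9 drew the figures. Gene symbols came from the platform annotation, and all 97 member probe sets matched RefSeq by Entrez number with 0 changed. No 2 arrays shared more than 0.198% of values.

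Replicate numbers pair the arrays: the labels give both arrays of a number 1 experiment name, and deviations from the group means correlated at 0.323, 0.21 and 0.272 in replicates 1, 2 and 3 across probe sets. The members, lists and tests were chosen with earlier results of these data known. Full statistics are given for genes called in either fit, the brightest of each role, the largest rise and fall of each class, and genes whose probe sets lie over 1 log2 unit apart. Further genes were named after their values were seen, mostly for the same sign in all 3 replicates. The 6 arrays limit the precision of every value.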

Additional observations from a re-analysis of the deposited data

How the results depend on the processing

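The alternatives tried were other pseudocounts and filters, quantile normalization, centring of arrays, no trend, the replicate block, other ways to represent a gene, and leaving out arrays. With all arrays and no block, limma called 0 member genes under each of these settings. It called 0 member probe sets under those that keep all probe sets apart. With the replicate block it called 1 elongation factor gene and 2 member probe sets, both of EEF2. The same numbers came with the block and a smaller or larger pseudocount or quantile normalization. With the block and centred arrays there were 2 genes, EEF1A2 being the second, and 3 probe sets. With the block and no filter there were 0 genes and 1 probe set. With the block and no trend there were 0 of both. With the block and both arrays of a replicate left out, calls ran from 0 to 4 initiation factor genes, 0 to 2 elongation factor genes and 1 to 9 probe sets. The 4 were EIF6, EIF3F, EIF4B and EIF4EBP1, called without replicate 2 (limma, adjusted p = 0.0453, 0.0359, 0.0265 and 0.0263). The 2 elongation factor genes were EEF2 and EEF1A2, called without replicate 2 and also without replicate 3. In these 2 settings 644 and 210 of all 7938 tested genes were called.

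The elongation median of -0.36 was -0.61 under a stricter filter and -0.96 with plain probe set types only, where EEF1A2 alone remained. It ran from -0.56 to -0.29 without single arrays. The initiation median of -0.06 stayed within -0.11 to 0.01. EIF1 turned to 0.045 after quantile normalization, with and without the block, and to 0.65 with plain types. EIF2S2 turned to -0.41 with probe sets averaged and -0.99 with plain types, EIF4E to -0.26 with plain types, and EIF4G2 to 0.066 after quantile normalization, with and without the block. Leaving out single arrays gave -0.28 to 0.20 for EIF1, -0.023 to 0.40 for EIF2S2, -0.057 to 0.44 for EIF3K, -0.047 to 0.033 for EIF4G2, -0.98 to 0.036 for EIF4EBP1 and -0.39 to 0.0055 for EEF1AKMT3. With the block and a replicate left out, EIF1 turned to 0.0051 without replicate 1 and 0.069 without replicate 3, EIF2S2 to -0.11 without replicate 2, EIF2B1 to -0.032 without replicate 1 and EIF4G2 to 0.026 without replicate 3. No other of the 31 genes followed changed sign in these settings, and the causes were not tested. With all arrays and the main settings otherwise, the replicate block changed no member call but those of EEF2.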
